A study of Mus musculus with 8 samples.

Results

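Potassium channel genes were read from single-cell transcriptomes of the adult mouse liver. They were taken as every gene whose symbol starts with *Kcn*. Of the 46517 genes in the count table, 99 carried such a symbol, and the 59 with at least 300 counts over all 3491 cells are described here. Of the other 40 genes, 4 had no count. The 59 genes held between 366 and 92699 counts each (median 4125), and all *Kcn* genes together took 0.0765% of the counts. Cells came from C57BL6/J mice and from the reporter strains *Pdgfrb*-GFP, *Pdgfra*-H2bGFP, *Cspg4*-dsRED, *Acta2*-GFP and *Cldn5*-GFP. The mice were adult males and females of 8 weeks to 1 year, their reporter alleles were heterozygous, and the cells of a sex were pooled over mice that the cell labels do not name. Cells were sorted on antibodies, on the reporters or, in the case of hepatocytes, taken alive with no marker, so the numbers of cells per class follow the sort.

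The authors divided the cells into 4 classes, and each class holds a male and a female pool, which makes 8 samples. The male and female pools held 998 and 339 mesenchymal, 655 and 451 endothelial, 255 and 396 immune, and 358 and 39 parenchymal cells. Median counts per cell ran from 88932 in the female parenchymal pool to 321121 in the female mesenchymal pool. No plate of the 22 mixed the sexes, and the female mesenchymal cells shared 1 plate, so sex and plate cannot be told apart. A level is given as CPM, which is a gene's summed counts in the cells of a population and pool, per 1000000 counts of all genes there. Levels of different genes are ranked only per kilobase of exon. The pool is the replicate, and 2 pools per population are a small number. In such summed counts, fewer cells with a channel and less RNA per cell cannot be told apart.

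The class labels were checked against their markers. The pair *Pecam1* and *Cdh5* summed to 1827 CPM in endothelial cells, *Ptprc* 595 CPM in immune cells, *Pdgfra* and *Pdgfrb* 1416 CPM (summed) in mesenchymal cells, and *Krt18*, *Alb* and *Cdh1* 6236 CPM (summed) in parenchymal cells. Immune cells also held 373 CPM of the endothelial pair. Among the mesenchymal clusters, #m2c (arterial smooth muscle cells, SMC), #m8c (portal vein SMC), #m9c (venous SMC) and #m15c (SMC of large veins) had 6996 to 14397 CPM of 5 smooth muscle markers, against 1010 to 1491 CPM in the 2 hepatic stellate cell clusters (#m7c, HSC; #m3c, HSC of the capsule) and in #m5c, the second layer cells of the vessel wall. The 3 stellate markers *Reln*, *Lrat* and *Hgf* reached 6211 CPM in #m7c, 2196 CPM in #m3c and 1965 CPM in #m5c, but also 1551 CPM in the venous SMC of #m9c, against 46.0 to 313 CPM in the other SMC clusters. Of the pericyte markers, *Cspg4* was at 380 CPM in #m2c and 178 CPM in #m8c, and at most 20.8 CPM in the other 5. *Higd1b* was at 53.1 and 131 CPM there, and at most 8.05 CPM in the others. The part of stellate cells in the results for #m9c, and of pericytes in those for #m2c and #m8c, was not tested. Of the 2 genes listed for second layer cells, *Ncam1* was at 364 CPM in #m5c but at 601 CPM in #m15c, and *Cdh3* was at 7.94 CPM in #m5c.

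Potassium channels let potassium leave the cell along its gradient and so set the resting membrane potential. In vascular smooth muscle an open potassium channel hyperpolarizes the membrane, closes voltage-gated calcium channels and relaxes the cell, and the channel types differ in what opens them: depolarization, intracellular calcium, a fall in ATP, or nothing beyond the resting state. In epithelia the same genes provide the driving force for secretion, and in macrophages and lymphocytes they set the potential that carries calcium entry. A channel is built from pore-forming subunits, from silent subunits that only alter a partner, and from auxiliary subunits that change its gating.

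The 59 genes comprised 22 of 40 voltage-gated subunits, 9 of 15 inward rectifiers, 7 of 14 two-pore channels, 8 of 8 calcium- or sodium-activated subunits, 11 of 16 auxiliary subunits and 2 of 6 others. Kinds follow the gene symbol, so *Kcnu1* was counted as calcium- or sodium-activated with the *Kcnn* and *Kcnt* genes, whatever opens it. The class with the highest level was the mesenchymal one for 27 genes, the immune one for 15, the parenchymal one for 9 and the endothelial one for 8. For 43 of the 59 genes, both pools of that class lay above every pool of the other 3 classes. No share over all genes was set beside these counts by class, so they do not set the *Kcn* genes apart. By kind, 12 of the 22 voltage-gated and 5 of the 8 calcium- or sodium-activated subunits were highest in mesenchymal cells, and 5 of the 9 inward rectifiers were highest in immune cells. Summed without *Kcnq1ot1* and *Kcnrg*, which encode no channel subunit, mesenchymal cells held 955 CPM, parenchymal cells 821 CPM, immune cells 604 CPM and endothelial cells 292 CPM. At 10 CPM or more stood 19 genes in mesenchymal, 10 in immune, 9 in parenchymal and 6 in endothelial cells.

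**Figure D1:**
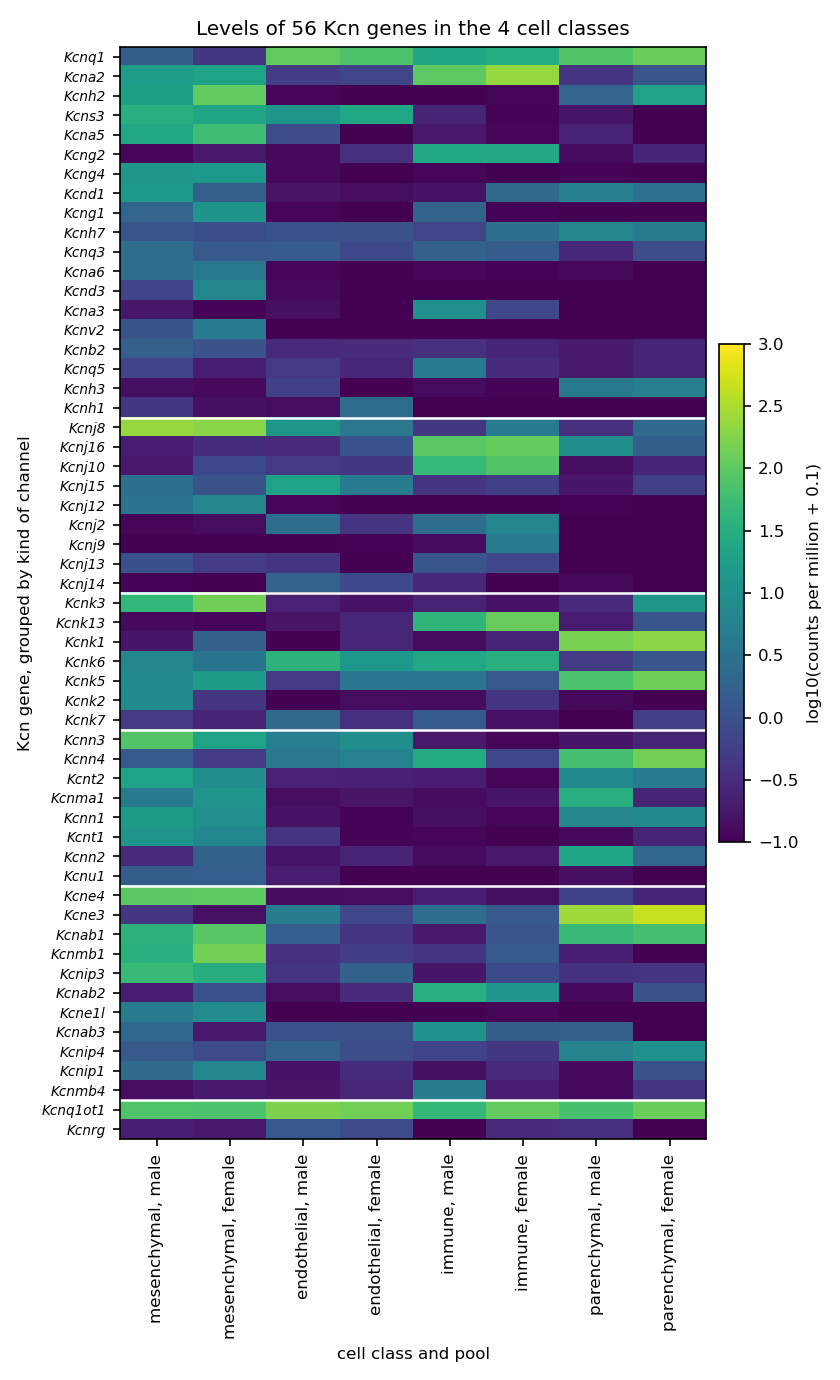
Levels of 56 of the *Kcn* genes (rows) in the male and female pool of each cell class (columns), as log10 of CPM + 0.1. White lines separate, from top to bottom, voltage-gated subunits, inward rectifiers, two-pore channels, calcium- or sodium-activated subunits, auxiliary subunits and others. In 41 rows the brighter class stands above every other pool, a count with no share over all genes beside it.

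Each class was compared with the mean of the other 3 by edgeR's quasi-likelihood test on the summed counts, with Benjamini-Hochberg adjustment over 24046 genes. Calls of higher or lower required an adjusted p below 0.05 together with a log2 fold change whose size was 1 or more. The fit averages log levels, so a gene can be called higher while 1 of the other classes holds more of it, and such cases are named. In mesenchymal cells, 26 of 58 tested *Kcn* genes were called higher, against 9.47% of all genes tested, and 4 lower, against 2.33%. In parenchymal cells 13 were called higher (background 8.37%) and 7 lower (4.05%). In immune cells 9 were called higher (7.92%) and 7 lower (5.25%). In endothelial cells 5 were called higher (5.33%) and 4 lower (2.96%). The background holds genes below the limit of 300 counts that was set for the *Kcn* genes. Over the 19593 tested genes at or above that limit, 10.5% were called higher and 2.85% lower in mesenchymal cells, 9.60% and 4.97% in parenchymal, 8.90% and 6.44% in immune, and 6.23% and 3.62% in endothelial cells. The median log2 fold change of the *Kcn* genes was 2.95 in mesenchymal cells, against 0.02 over all genes, and below 0 in the other 3 classes. With the female mesenchymal pool left out, the mesenchymal calls fell from 30 to 19. Of the 9 endothelial calls, 2 were made again without the male and 2 without the female endothelial pool. Of the 16 immune calls, 10 were made again without the male and 9 without the female immune pool, and of the 20 parenchymal calls 8 and 11 without the male and the female parenchymal pool.

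Per kilobase of exon, the leading *Kcn* gene of mesenchymal cells was *Kcnj8*, the pore of the vascular ATP-sensitive potassium channel (KATP). Its mesenchymal levels were 233 CPM (male pool) and 198 CPM (female pool), and the highest other pool, of endothelial cells, was at 12.9 CPM. Both mesenchymal pools were thus well above the 6 others, with a log2 fold change of 6.36 ± 0.94 (SE, 2 pools a class; edgeR's quasi-likelihood test, adjusted p = 0.0039). *Kcne4*, an auxiliary subunit of KCNQ channels, was at 93.4 and 101 CPM in mesenchymal cells and at most 0.489 CPM elsewhere (log2 fold change 9.96 ± 0.61, adjusted p = 0.00016 by the same edgeR test). Besides these, the called genes included the calcium- or sodium-activated subunits *Kcnn1*, *Kcnn3*, *Kcnt1* and *Kcnt2*, and *Kcnu1*, which was grouped with them by symbol. The two-pore channels *Kcnk2* and *Kcnk3* and 11 of the 22 voltage-gated subunits were also called higher. For *Kcnv2*, a silent subunit with 717 counts in mesenchymal cells and none in the other classes, the level was at least 408-fold higher (floor of 3 counts over the other classes). *Kcna2* was called higher too, but was at 97.5 and 232 CPM in immune cells against 17.6 and 21 CPM in mesenchymal cells. The 4 genes called lower were *Kcnq1*, *Kcne3*, *Kcnj16* and *Kcnk13*, none of them above 1.41 CPM in either mesenchymal pool.

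Within the mesenchyme, the mural, second layer and stellate clusters differed from each other in the summed level and the make-up of their *Kcn* RNA. The sum adds genes of unlike exon length, and auxiliary as well as pore-forming subunits. Summed over the channel subunits, again without *Kcnq1ot1* and *Kcnrg*, the male and female pools of #m15c held 2421 and 3197 CPM, and those of #m2c 1902 and 1836 CPM. The levels were 1145 and 1056 CPM in #m8c, 427 and 444 CPM in #m9c, 637 and 868 CPM in #m5c, 345 and 616 CPM in #m3c, and 1044 and 855 CPM in #m7c. Both pools of #m15c and of #m2c were therefore above both pools of the other 5 clusters. At 10 CPM or more stood 17 genes in #m2c, 16 in #m15c, 13 in #m5c, 11 in #m8c and 10 each in #m9c, #m3c and #m7c. Per kilobase of exon, *Kcnj8* made up 81.7% of the summed level of #m7c, while the leading gene of #m2c, *Kcne4*, made up 17.5%. Only 4 female cells fell in #m7c, so its female values are given but entered no fit, and #m15c held 7 male cells.

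**Figure D2:**
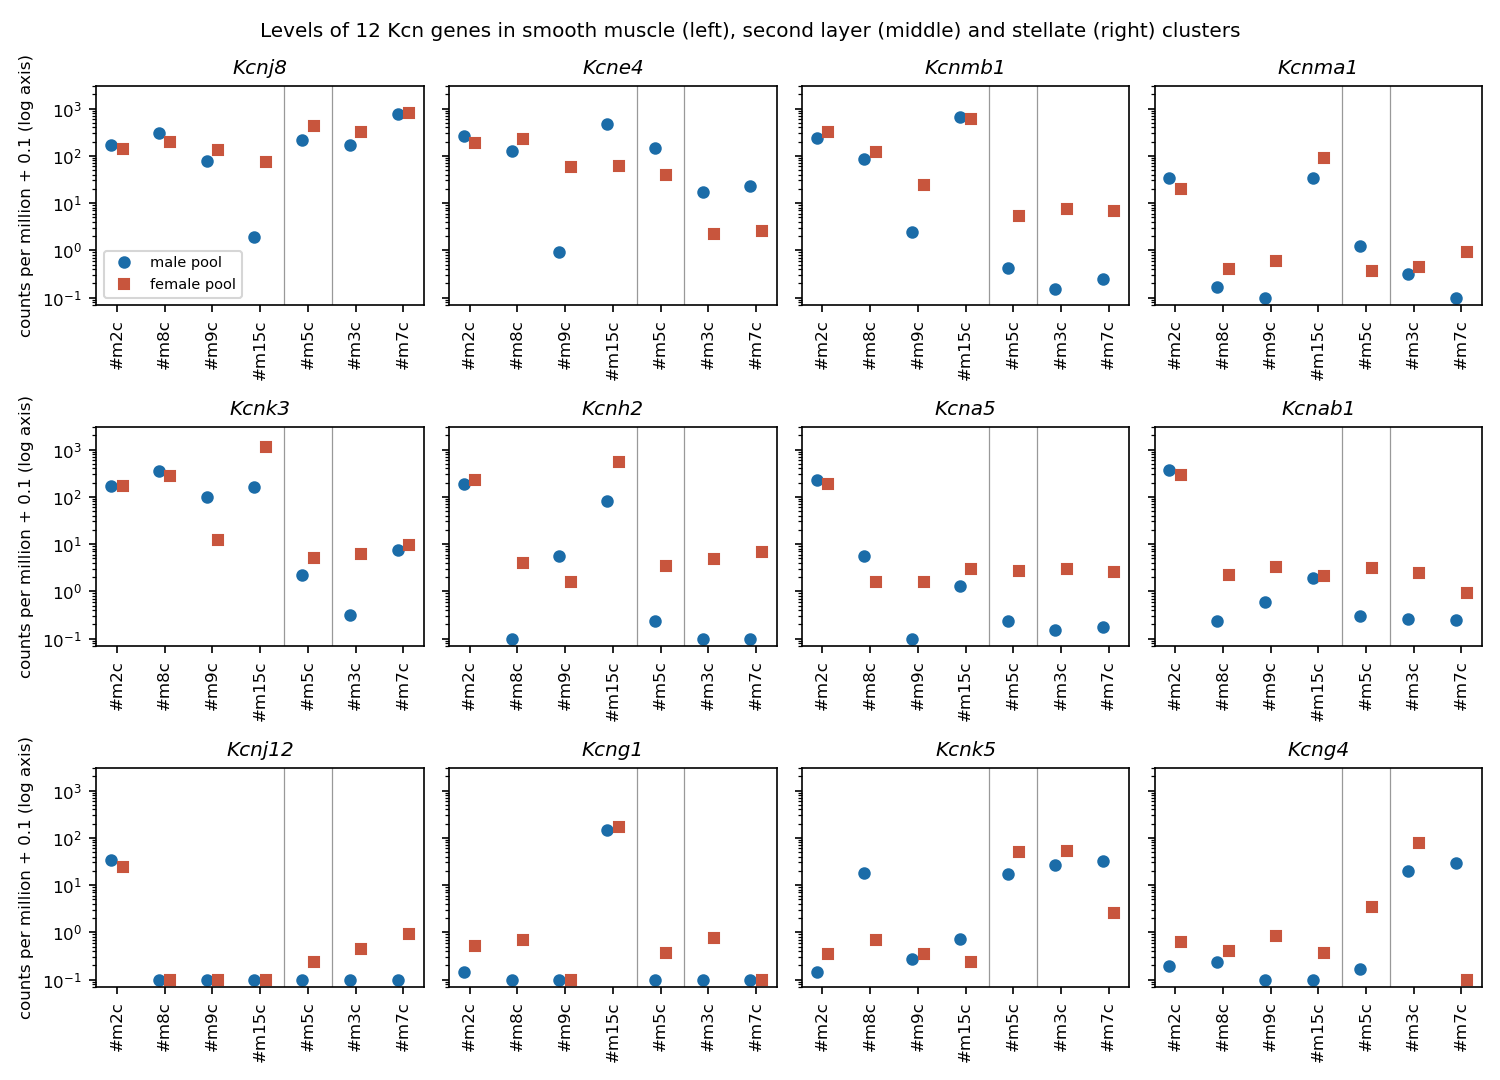
Levels of 12 *Kcn* genes in the male (circles) and female (squares) pool of 7 mesenchymal clusters, as CPM + 0.1 on a log axis. SMC clusters stand left of the first line, the second layer cells between the lines and the stellate clusters on the right, and the female point of #m7c rests on 4 cells. *Kcna5*, *Kcnab1* and *Kcnj12* peak in #m2c and *Kcng1* in #m15c, while *Kcnj8* is highest in #m7c.

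Among the inward rectifiers, *Kcnj8* (GRCm38, chromosome 6, 142564837 to 142571614, minus strand) was found in every one of the 7 clusters. It was at 768 and 807 CPM in the male and female pool of #m7c, at 211 and 425 CPM in #m5c, at 168 and 317 CPM in #m3c, at 296 and 198 CPM in #m8c, at 168 and 138 CPM in #m2c, at 79.4 and 134 CPM in #m9c, and at 1.84 and 72.4 CPM in #m15c. Both pools of #m7c were above every other pool, the pools of #m5c, #m3c and #m8c overlapped, those of #m2c and #m9c lay below them or at their lower edge, and #m15c was lowest. *Kcnj8* had a count in 56 of 72 cells of #m7c (77.8%, exact 95% binomial interval 66.4 to 86.7) and in 16 of 39 cells of #m9c (41.0%, 25.6 to 57.9). With every cell thinned to 50000 counts, the shares were 73.6% and 23.1%. Reads were counted without molecular identifiers, so intervals and floors here cover counting error only. Each of the 7 clusters was compared with the mean of the other 6, and none was called for *Kcnj8*. #m7c enters the fit with its male sum alone, which is assumed to vary like the sums of the other clusters, so its tests have no replicate check. There the log2 fold change was 2.34 ± 0.89 (adjusted p = 0.335, edgeR's quasi-likelihood test). Portal fibroblasts, which were not part of that comparison, held *Kcnj8* at 321 CPM in #m1c, 265 CPM in #m10c and 243 CPM in #m13c (male pools). *Kcnj12*, a strong inward rectifier, followed another pattern, with 34.6 and 23.5 CPM in #m2c and at most 0.839 CPM in the other 6 clusters.

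*Abcc9*, the regulatory subunit that completes the KATP channel, lies next to *Kcnj8* on chromosome 6 (142587862 to 142702315, same strand) and was followed as a partner. It was at 2958 CPM in the male pool of #m7c, where it was called higher than in the other 6 clusters (log2 fold change 2.85 ± 0.48, adjusted p = 0.00128, edgeR's quasi-likelihood test, on that single sum). In #m2c it was at 99.7 and 44.3 CPM, called lower than the mean of the other 6 (log2 fold change -3.31 ± 0.60, adjusted p = 0.000763, same test). In #m2c *Kcnj8* itself stood at -0.31 ± 0.85 on the log2 scale, without a call. Both *Abcc9* pools of #m2c lay below every other pool of the 7 clusters, while its *Kcnj8* pools lay within their range. Per kilobase of exon, the *Kcnj8* level was 303 CPM in #m7c and 58.7 CPM in #m2c. *Abcc8*, the alternative partner, had a count in 1 mesenchymal cell of 1337. *Kcnj11*, the alternative pore, held 64 counts, all in 1 cholangiocyte, and falls below the limit of 300 counts. In the endothelium both genes appeared in the sinusoidal clusters #e3 (*Kcnj8* 15.8 CPM, *Abcc9* 27.6 CPM), #e5 (24.5 and 27.9 CPM) and #e8 (18.6 and 51.2 CPM). Over both pools they were at most 0.541 CPM in #e1, #e2, #e6 and #e7. The part of stellate cell RNA in the sinusoidal values was not tested.

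**Figure D3:**
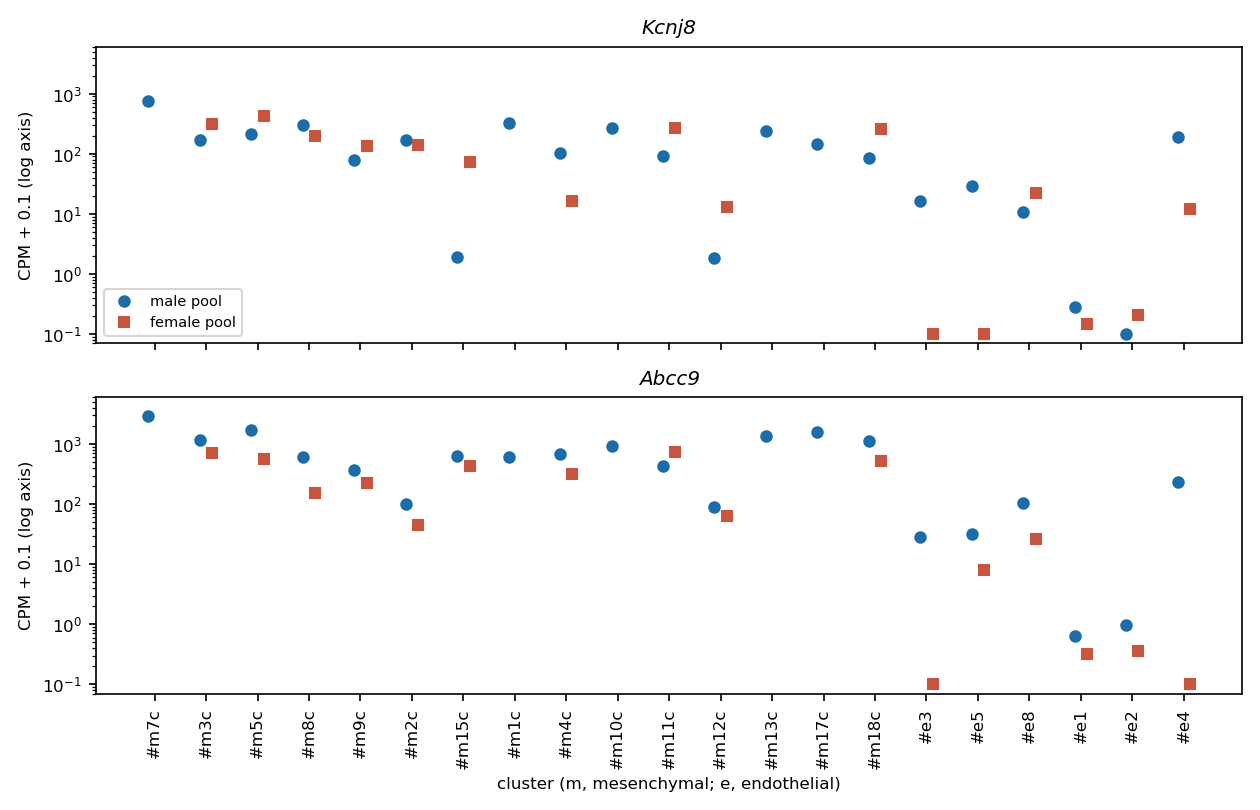
Levels of *Kcnj8* (top) and its partner *Abcc9* (bottom) in the male and female pools of mesenchymal (m) and endothelial (e) clusters, as CPM + 0.1 on a log axis; pools under 5 cells are left out. The male pool of #m7c is highest for both genes, and #m2c combines *Kcnj8* at 168 and 138 CPM with *Abcc9* at 99.7 and 44.3 CPM.

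The arterial cluster #m2c, compared with the mean of the other 6 clusters, had 8 of 52 tested *Kcn* genes called higher (background 3.28% of 21329 genes) and none lower (0.933%). Because the authors drew the clusters from these same transcriptomes, the clustering partly fixes the p-values between them. *Kcna5*, a voltage-gated channel of vascular muscle, was at 228 and 185 CPM in #m2c and at most 5.45 CPM in the other mural and stellate pools. *Kcnab1*, the beta subunit that gives Kv1 channels inactivation, was at 366 and 283 CPM and at most 3.20 CPM there. The groups did not overlap for either gene, and the log2 fold changes were 7.79 ± 1.52 (adjusted p = 0.00177) and 8.38 ± 1.44 (adjusted p = 0.000422) in the edgeR quasi-likelihood fit. Each gene had a count in 150 of 236 cells (63.6%, 57.1 to 69.7). *Kcnj12* was called as well (log2 fold change 10.39 ± 1.75, adjusted p = 0.00048, same test), though only 24 of 236 cells held a count. Of the 8 calls, *Kcnab3* and *Kcnn2* drew 94.4% and 92.1% of their counts from a single cell and were lost when each gene's highest cell was taken out of every sum.

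The cluster of large veins, #m15c, had 6 of 52 genes called higher (background 1.46%) and none lower (0.300%), with levels over both pools above each of the other 6 clusters for all of them. *Kcng1*, a silent voltage-gated subunit, was at 149 and 172 CPM in #m15c and at most 0.665 CPM in the other mural and stellate pools (log2 fold change 10.92 ± 1.72, adjusted p = 0.000347, edgeR). *Kcnk3*, an acid-sensitive two-pore channel that is open at rest, was at 159 and 1140.5 CPM, and its 2 pools enclosed those of #m8c at 352 and 274 CPM, its male pool also lying below that of #m2c at 173 CPM. The log2 fold change of *Kcnk3* was 4.70 ± 0.99 (edgeR, adjusted p = 0.00725). *Kcnh2*, a voltage-gated channel of the ether-à-go-go family, was at 82.0 and 553 CPM, against 184.2 CPM in the male pool of #m2c. Without the female pool of #m15c the calls of *Kcnk3*, *Kcnh2* and *Kcnn1* were lost (adjusted p = 0.419, 0.106 and 0.188 by the same edgeR test). With the pool as a block the adjusted p was 0.0510 for *Kcnk3* and 0.0788 for *Kcnn1*, and 4 calls were made. *Kcnn1*, an apamin-sensitive calcium-activated channel, drew 93.3% of its counts from 1 cell, and its call was lost without that cell. *Kcnip3*, a calcium-binding auxiliary subunit, stood at 262 and 73.2 CPM and *Kcns3*, a silent subunit, at 359 and 22.3 CPM, with adjusted p of 0.354 and 0.106 by the same edgeR test.

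The pore and the beta subunit of the large-conductance calcium-activated (BK) channel, which opens on local calcium release in smooth muscle, were called together in both #m2c and #m15c. *Kcnma1*, the pore, was at 33.0 and 19.8 CPM in #m2c, at 34.3 and 89.3 CPM in #m15c, and at most 1.13 CPM in the other 5 clusters. *Kcnmb1*, the smooth muscle beta subunit, was at 668 and 600 CPM in #m15c, at 233 and 316 CPM in #m2c, at 83.4 and 122 CPM in #m8c and at 2.33 and 23.6 CPM in #m9c. For both genes the pools of #m2c and #m15c were above every other pool, and in #m9c 1 cell gave 71.8% of the *Kcnmb1* counts. In #m15c the log2 fold changes were 7.38 ± 1.51 for *Kcnma1* (adjusted p = 0.00534) and 6.07 ± 1.14 for *Kcnmb1* (adjusted p = 0.00262) in the edgeR quasi-likelihood fit. In #m2c they were 6.05 ± 1.44 (adjusted p = 0.011) and 4.76 ± 1.08 (adjusted p = 0.00779) by the same edgeR test, and #m15c held more of both genes over its 2 pools. The *Kcnma1* call in #m2c was lost without the male pool (adjusted p = 0.0791, edgeR). Only 27 of 236 cells of #m2c held a *Kcnma1* count (11.4%, 7.68 to 16.2), against 137 cells for *Kcnmb1* (58.1%, 51.5 to 64.4), and the exons of *Kcnma1* are the longer, 16.98 kb against 4.19 kb.

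The promoters of this pair are shown because both subunits serve the same channel. They are RefSeq windows of 300 bases, from 250 before to 50 after a gene start, in GRCm38.p6, 5′ to 3′ on the strand of the gene. Capitals mark the motifs GGGCGG (GC box) and CANNTG (E-box), searched on both strands, and 2 of the 3 GC boxes of *Kcnma1* overlap by 2 bases.
Kcnma1, chr14:24004156-24004455, minus: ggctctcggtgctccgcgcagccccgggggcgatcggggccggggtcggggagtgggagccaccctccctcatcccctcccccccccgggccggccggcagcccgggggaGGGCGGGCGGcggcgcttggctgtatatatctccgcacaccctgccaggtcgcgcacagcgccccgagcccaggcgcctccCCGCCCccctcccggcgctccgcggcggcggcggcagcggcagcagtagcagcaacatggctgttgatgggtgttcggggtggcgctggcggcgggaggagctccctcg
Kcnmb1, chr11:33962763-33963062, plus: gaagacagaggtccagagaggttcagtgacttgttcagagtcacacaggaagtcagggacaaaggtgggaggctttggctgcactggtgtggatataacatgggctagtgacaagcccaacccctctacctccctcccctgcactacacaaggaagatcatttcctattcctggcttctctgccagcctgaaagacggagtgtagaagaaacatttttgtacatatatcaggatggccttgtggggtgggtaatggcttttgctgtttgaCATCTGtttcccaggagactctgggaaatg
The *Kcnma1* window was 78.0% GC and held 3 GC boxes and no E-box, and the *Kcnmb1* window was 49.7% GC and held 1 E-box and no GC box. Over all 32851 windows, 35.7% held a GC box, 72.3% an E-box and 1.63% a CArG box, the serum response motif of smooth muscle genes. Of the 59 genes, 41 matched the table with 60 windows, of which 40.0% held a GC box, 76.7% an E-box and none a CArG box. The median GC content over all windows was 52.7%.

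As a group, the 4 SMC clusters were compared with the fibroblast clusters, and 4 of 52 *Kcn* genes were called higher (background 1.76%) and none lower (1.34%). *Kcnk3* averaged 195 CPM in male and 398 CPM in female SMC sums against 0.869 and 6.20 CPM in fibroblasts, and over both pools each SMC cluster, from 62.5 CPM in #m9c upwards, was above the highest fibroblast cluster at 12.8 CPM (log2 fold change 6.84 ± 0.83, adjusted p = 6.61e-07, edgeR's quasi-likelihood test). In #m9c, however, 1 cell gave 72.8% of the *Kcnk3* counts, and its female pool was at 12.3 CPM. *Kcnmb1* averaged 247 and 265 CPM against 1.35 and 8.72 CPM (5.77 ± 0.85 on the log2 scale, adjusted p = 2.23e-05, same test), but #m9c, at 10.9 CPM over both pools, was not above the highest fibroblast cluster at 11.9 CPM. *Kcnh2* averaged 67.9 and 196 CPM against 0.306 and 4.35 CPM, but its male level ran from 0 in #m8c to 184.2 CPM in #m2c, and its call was lost without the female pool of #m8c (adjusted p = 1, edgeR). *Kcns3* was the fourth, and its call was lost when each gene's highest cell was left out and when the fibroblast clusters #m6c, #m14c and #m17c were. Without those 3 clusters *Kcnn3* and *Kcng4* were called lower in SMC (log2 fold changes -5.40 ± 1.05 and -5.24 ± 1.28, adjusted p = 0.00113 and 0.0128, edgeR). *Kcne4*, at 214 CPM on average over the male SMC sums, missed the threshold with an adjusted p of 0.0582 by the same edgeR test.

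In the portal vein SMC of #m8c, no *Kcn* gene was called by edgeR (background 0.820% in either direction). An unadjusted p under 0.05 was found for 4 of 52, against 1862 of all 21329 genes. DESeq2 called none either, but 5 of the other settings called between 1 and 3 genes. *Kcnk3* came nearest, at 352 and 274 CPM (log2 fold change 3.48 ± 0.97, adjusted p = 0.072, edgeR). In the venous SMC of #m9c the single call was *Kcnh1* (background 0.380% higher and 0.0188% lower), and all of its counts there came from 1 cell, so that it was lost without that cell, without the male pool and with the pool as a block. Compared per kilobase, *Kcnj8*, *Kcns3* and *Kcnk3* led #m9c, at 39.8, 20.5 and 15.7 CPM. In the second layer cells of #m5c no gene was called (background 0.844% in either direction). An unadjusted p under 0.05 was found for 12 of 52, against 2028 of all 21329 genes. DESeq2 called none either, but 6 of the other settings called between 1 and 6 genes. *Kcnn3*, a small-conductance calcium-activated channel, was at 41.9 and 16.7 CPM in #m5c (log2 fold change 4.28 ± 1.15, adjusted p = 0.0618, edgeR), but peribiliary fibroblasts of #m4c held 262 and 72.6 CPM.

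In the stellate clusters *Kcnk5*, an alkaline-activated two-pore channel, was at 26.8 and 51.6 CPM in #m3c, at 31.5 and 2.52 CPM in #m7c and at 16.8 and 51.1 CPM in #m5c. It had a count in 6 of 113, 11 of 72 and 12 of 87 cells of these clusters, and 1 cell gave 37.9%, 43.5% and 54.1% of the counts. In SMC it was at most 0.612 CPM apart from the male pool of #m8c, at 17.8 CPM, and 1 cell gave 98.4% of the counts of #m8c. It was the only gene called between stellate clusters and fibroblasts (background 1.23% higher and 0.370% lower), with a log2 fold change of 5.94 ± 1.22 (adjusted p = 0.00456, edgeR's quasi-likelihood test). Between SMC and stellate clusters, *Kcnmb1* was called higher in SMC (background 0.333%) and *Kcnk5* and *Kcng4*, a silent voltage-gated subunit, lower (background 1.23%). These 3 calls fell to between 0 and 2 when any of the 8 SMC pools was left out, and to 0 without the male pool of #m2c or the female pool of #m8c. The *Kcng4* level was 19.9 and 76.0 CPM in #m3c and 28.7 and 0 CPM in #m7c, carried by 8 of 113 and 3 of 72 cells, and 1 cell gave 99.5% of it in #m7c. In #m3c, *Kcnj10*, *Kcna6* and *Kcng4* were called higher than in the other 6 clusters (3 of 52, background 1.18%) and none lower (0.0563%). A single cell gave 95.8%, 52.7% and 54.9% of their counts, no call remained with the pool as a block or without the female pool, and *Kcna6* alone was called without the highest cells. In #m7c the 2 calls, *Kcnk2*, a stretch-sensitive two-pore channel, at 7.27 CPM and *Kcnip4* at 7.70 CPM (background 1.15%, with none lower against 0.0985%), rested on 3 cells each of the male sum, and with the pool as a block no gene was called.

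One difference between the pools touched these clusters. In #m5c, #m3c and #m7c, which lie outside the SMC, *Kcnmb1* was at 5.30, 7.32 and 6.71 CPM in the female pools against 0.331, 0.053 and 0.144 CPM in the male pools. *Kcna5* was at 2.65, 2.83 and 2.52 CPM against 0.132, 0.053 and 0.072 CPM, and *Kcnh2* at 3.31, 4.66 and 6.71 CPM against 0.132, 0 and 0 CPM. All female mesenchymal cells shared 1 plate with 109 cells of #m2c and 26 of #m15c, and the part of the plate in these values was not tested.

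Among the fibroblast clusters, *Kcnn3* was at 262 and 72.6 CPM in #m4c, at 137 and 77.9 CPM in the *Wt1*+ cluster #m12c and at 161 CPM in the male pool of #m13c. *Kcnt2*, a sodium-activated channel, reached 110 CPM in #m17c, where 11 of 31 cells held it. *Kcng4* was highest in #m12c, at 85.3 CPM over both pools, and *Kcnv2* there at 31.1 CPM, on 10 and 5 of 60 cells. *Kcnd1*, a rapidly inactivating channel, was at 21.4 CPM in the male pool of #m4c and at 0 in the female pool of 9 cells, and at 39.3 and 0 CPM in #m5c.

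In endothelial cells, *Kcnj15*, an inward rectifier, was called higher at 20.7 and 4.26 CPM (log2 fold change 4.42 ± 0.92, adjusted p = 0.0248, edgeR's quasi-likelihood test) and stood at 44.8 and 3.44 CPM in the sinusoidal cluster #e5. *Kcns3* was called higher at 13 and 25.0 CPM and *Kcnn3* at 5.17 and 9.68 CPM, although mesenchymal cells held more of *Kcnn3* and, in the male pool, of *Kcns3*. *Kcnq1*, the pore of a slow delayed rectifier, was also called higher, at 111 and 76.6 CPM, although parenchymal cells stood at 82.9 and 121 CPM, and its level in #e8 was 374 and 111 CPM. The 4 genes called lower were *Kcna2*, *Kcnn1*, *Kcne4* and *Kcnh2*. Without the male endothelial pool the call of *Kcns3* was still made, and without the female pool that of *Kcnj15*, while those of *Kcnn3* and *Kcnq1* were lost both ways.

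Within the endothelium, cluster #e2, of 114 cells that the authors annotate to the portal vein and 14 to the peribiliary vasculature, had 2 of 31 tested genes called higher (background 1.85%) and none lower (0.0819%), and both are calcium-activated channels of endothelium-dependent relaxation. *Kcnn4*, of intermediate conductance, was at 39.3 and 33.2 CPM in #e2 and at most 0.923 CPM in every other endothelial pool (log2 fold change 8.79 ± 1.25, adjusted p = 0.00209, edgeR's quasi-likelihood test). It was carried by 10 of 128 cells. *Kcnn3* was called at 38.5 and 1.58 CPM (6.99 ± 0.99 on the log2 scale, adjusted p = 0.0016), on 7 of 128 cells, yet the lymphatic cluster #e4 held 170 and 287 CPM on 10 of 22 cells, so that the mean over the other clusters was higher than #e2 in the female pool. Of the cells with a count, 9 and 6 were portal vein cells, and 1 peribiliary cell held 281 of the 650 *Kcnn3* counts. Both genes were called without the peribiliary cells too (adjusted p = 0.00247 for *Kcnn4* and 0.00301 for *Kcnn3*, edgeR). Without the male pool of #e2 the *Kcnn3* call was lost (adjusted p = 0.346, edgeR). In the central vein cluster #e1 no gene was called (background 1.41% in either direction). An unadjusted p under 0.05 was found for 4 of 31, against 1778 of all 18321 genes. DESeq2 called none either, but 1 gene was called with no filter and 1 with sums per plate. The authors' annotation puts #e7 in the central vein as well, and with #e1 and #e7 together against the other 6 clusters edgeR called no gene either, with 5 of 31 at an unadjusted p under 0.05. For #e3, #e5, #e6, #e7 and #e8 as a group against #e1, #e2 and #e4, *Kcnn3* was called lower (1 of 31, background 1.16%) and no gene higher (0.759%), at 0.025 CPM in males and 0.125 CPM in females on average, and 2 genes were called with the pool as a block. With #e7 on the other side, *Kcnn3* was again the single call (log2 fold change -6.79 ± 1.19, adjusted p = 0.00612, edgeR).

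**Figure D4:**
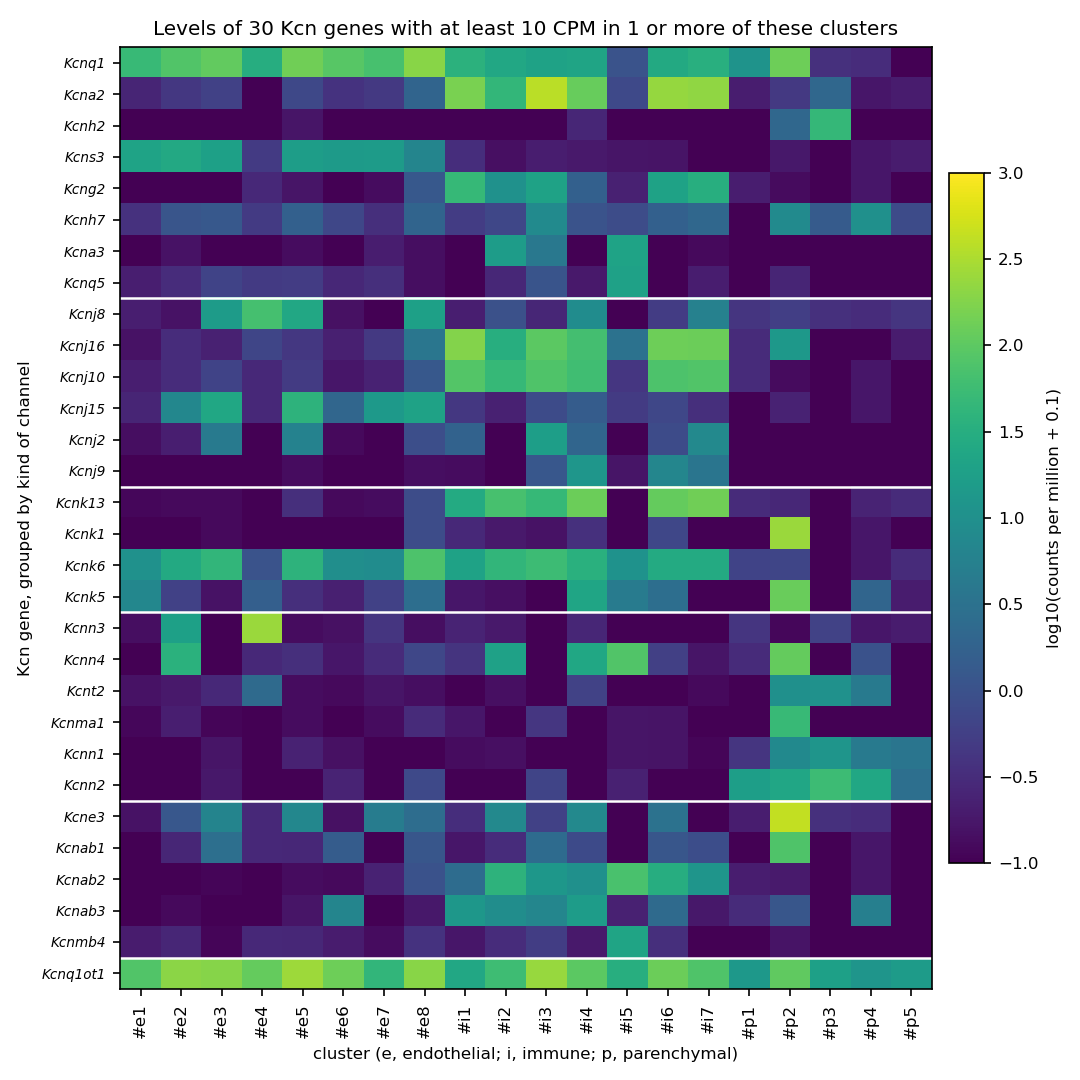
Levels of 30 *Kcn* genes with at least 10 CPM in 1 or more endothelial (e), immune (i) or parenchymal (p) clusters, as log10 of CPM + 0.1, both pools together. Kupffer cell clusters are bright for *Kcna2*, *Kcnj16*, *Kcnj10* and *Kcnk13*, the cholangiocyte cluster #p2 for *Kcne3*, *Kcnk1*, *Kcnk5*, *Kcnn4* and *Kcnab1*, and the hepatocyte clusters #p1, #p3, #p4 and #p5 are darker, their brightest rows being *Kcnn2*, *Kcnq1ot1* and, in #p3, *Kcnh2*.

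Immune cells were led by *Kcna2*, *Kcnj16*, *Kcnj10* and *Kcnk13*. *Kcnj16* and *Kcnj10*, inward rectifiers that form a joint channel, were at 93.1 and 113 CPM and at 47.0 and 82.8 CPM, with at most 9.05 and 0.676 CPM in the other classes. *Kcnk13*, a two-pore channel known from microglia, was at 41.9 and 119 CPM and at most 1.09 CPM elsewhere, and *Kcng2*, a silent subunit, at 24.1 and 25.8 CPM and at most 0.253 CPM. The groups did not overlap for any of these, and the log2 fold changes were 9.60 ± 0.89 for *Kcnk13* (adjusted p = 0.000549), 8.42 ± 0.79 for *Kcnj10* (adjusted p = 0.000574) and 6.65 ± 0.52 for *Kcna2* (adjusted p = 0.000319) in the edgeR quasi-likelihood fit. Over the Kupffer cell clusters, *Kcna2* was at 167 and 15.7 CPM in #i1, at 453 and 383 CPM in #i3, at 102 and 125 CPM in #i4, and at 212 and 220 CPM in the female pools of #i6 and #i7. The female pool of #i1 held 9 cells, and the authors annotate the 48 cells of #i4 as cycling (24) or contaminated (24). *Kcna2* and *Kcna3* lie 63.1 kb apart on chromosome 3, and *Kcnj16* and *Kcnj2* 38.2 kb apart on chromosome 11. All 4 genes were called higher in immune cells, *Kcnj2* at 2.62 and 6.62 CPM and *Kcna3* at 10 and 0.621 CPM. By contrast *Kcnj9*, 11.9 kb from *Kcnj10* on chromosome 1, was called in no comparison and tested in only 2.

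The B cells of #i5, which came from males alone, were compared with the Kupffer cell clusters. *Kcnk13* had no count in 58 cells, for which a floor of 3 cells allows a share of up to 5.17%. That share is of cells with a count and does not limit the share with the RNA. The *Kcnk13* level was at least 514-fold lower than in the Kupffer cell clusters (floor of 3 counts). *Kcna2* was at 0.670 CPM. Of 38 genes tested, 6 were called higher (background 3.55%) and 2 lower (1.23%). These calls rest on 1 sum of B cells, which is assumed to vary like the sums of the other immune clusters and has no replicate check. *Kcnn4* and *Kcna3*, the lymphocyte channels that sustain calcium entry, were at 80.7 and 20.9 CPM, on 6 cells each, and *Kcnq5* at 19.2 CPM on 4 cells. A single cell gave 69.2% of the *Kcna3* and 88.1% of the *Kcnq5* counts. *Kcng1*, *Kcnmb4* and *Kcnj13* drew over 95% of their counts from 1 cell and were lost without it. With #i4 left out of the Kupffer cell clusters, *Kcnj13* was lost too (adjusted p = 0.110, edgeR). With the pool as a block 1 call was left of the 8. In the monocytic cluster #i2, also 1 sum, against the same clusters, only *Kcna3* was called (1 of 38, background 2.77% higher and 0.0995% lower), at 16.7 CPM on 3 of 65 cells, and with the pool as a block, by DESeq2, or without #i4 (adjusted p = 0.0843, edgeR), it was not. *Kcnab2*, a beta subunit of Kv1 channels, was at 72.1 CPM in #i5 and 39.3 CPM in the male pool of #i2, but at 2.67 CPM in that of #i1.

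In parenchymal cells, nearly all the potassium channel counts were those of cholangiocytes. The cholangiocyte cluster #p2 held 1267 CPM summed over the channel subunits, while the 4 hepatocyte clusters held between 9.92 and 143 CPM. *Kcne3*, the auxiliary subunit that keeps *Kcnq1* channels open in secretory epithelia, was at 424 and 465 CPM in #p2 and at most 0.262 CPM in hepatocytes. *Kcnk1* and *Kcnk5*, two-pore channels of epithelia, were at 254 and 208 CPM and at 119 and 137 CPM, against at most 0.0759 and 1.90 CPM. *Kcnq1* was at 134 and 124 CPM, *Kcnn4* at 108 and 145 CPM, and *Kcnab1* at 79.6 and 67.3 CPM. Both pools of cholangiocytes lay above the male sum of every hepatocyte cluster for each of these genes. Against the hepatocyte clusters, 15 of 26 tested genes were called higher, none lower. The background was 28.6% higher and 8.67% lower, and the median log2 fold change over all genes was itself 1.38, against 5.75 for the *Kcn* genes. For *Kcnk1* the ratio of summed levels was 8977 (95% interval 1611 to 354582, on 1 count in hepatocytes), and the log2 fold changes of *Kcne3* and *Kcnn4* were 11.68 ± 0.91 (adjusted p = 8.04e-09) and 10.53 ± 1.17 (adjusted p = 4.09e-07) in the edgeR quasi-likelihood fit. Of the 15, 9 were called without the highest cells. The hepatocyte clusters had no female sum of 5 cells, so the pool could not be set as a block.

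*Kcnma1* stood apart in cholangiocytes. It was at 54.4 CPM in males, on 37 of 157 cells, and at 0.160 CPM in females, on 1 of 37 cells, at least 588-fold higher in #p2 than in hepatocytes, where it had no count. *Kcnmb1* was at 0.160 CPM in the male pool of #p2. In #m2c the pore was at 33.0 and 19.8 CPM, as given above, beside a beta subunit at 233 and 316 CPM. In hepatocytes, *Kcnn2*, a small-conductance channel, was at 17.8 CPM in #p1, 54.5 CPM in #p3, 24.2 CPM in #p4 and 2.82 CPM in #p5 (male pools), on 3, 5, 8 and 1 cells. At the level of the class, *Kcnh2*, *Kcnn1* and *Kcnh3* were called higher in parenchymal cells with 57.4%, 51.3% and 63.6% of their counts from 1 cell, and for *Kcnh2*, *Kcnn1*, *Kcnt2*, *Kcnab1* and *Kcnq1* another class held more in at least 1 pool. Without the highest cells the calls of *Kcnh2* and *Kcnn1* were lost.

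Genes that work with these channels were followed as lists. Of 22 genes of smooth muscle calcium handling, all tested in mesenchymal cells, 11 were called higher and 1 lower, with the backgrounds given above. In #m2c 5 of the 22 were called higher and none lower: *Pln*, which restrains the calcium pump of the reticulum, the pump *Atp2a3*, the T-type calcium channels *Cacna1h* and *Cacna1g*, and the release channel *Ryr2*. *Cacna1h* was at 83.8 and 106 CPM in #m2c. *Pln* is also an arterial marker of the authors. In #m15c 2 were called higher, *Pln* and *Cacna2d3*, in #m3c 2, *Cacna1g* and the release channel *Itpr3*, and in #p2 7 of 14, where 28.6% of all genes were called higher. Of 14 genes of the sodium-potassium pump, 4 were called higher and 1 lower in mesenchymal cells, 4 higher and 3 lower in immune and likewise in parenchymal cells, and 2 higher in #m2c. *Atp1b2*, the beta subunit, was at 1258 and 962 CPM in #m2c (log2 fold change 3.31 ± 0.49, adjusted p = 5.33e-05, edgeR) and was also called in #m8c. *Ano1*, a calcium-activated chloride channel that opposes the potassium channels, was higher in SMC than in fibroblasts (3.13 ± 0.42 on the log2 scale, adjusted p = 3.18e-06, same test). Of 5 tested partners of potassium channels, 2 were called higher in mesenchymal cells, *Abcc9* and *Lrrc55*, a gamma subunit of the BK channel. Of the hyperpolarization-activated channels, *Hcn3* was called higher in parenchymal cells (log2 fold change 7.48 ± 1.22, adjusted p = 0.00628, edgeR) and lower in #p2 than in hepatocytes (-4.87 ± 1.07, adjusted p = 0.000969), and *Hcn2* higher in #m7c at 5.83 CPM in males, all from 1 cell. Of 5 tested cation-chloride cotransporters, none was called higher and 1 lower in mesenchymal cells, and 3 of 5 were called higher in #p2, against the same background of 28.6%.

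The support behind a call varied with the number of cells. Over the 20 comparisons, 130 calls were made, 103 higher and 27 lower, and 51 of the 59 genes were called at least once. The share of all genes called at least once was not set beside this, so the 51 is not read as particular to *Kcn* genes. Of the 103 higher calls, 81 were also made when the highest cell of each gene was taken out of every sum, and for these the median share of counts from 1 cell was 10.5% with a median of 88 cells. For the 22 others the medians were 92.3% and 6 cells. The 8 genes without a call included *Kcnh7*, *Kcnq3*, *Kcnb2*, *Kcnk7*, *Kcnj9*, *Kcnj14* and *Kcnrg*. In 22 of the 59 genes, the cluster with the highest level drew over 50% of its counts from a single cell. By number of genes, the highest level fell in #m15c for 10, in #p2 and #m17c for 6 each, and in #m2c and #i5 for 4 each, over the 36 clusters of at least 10 cells.

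**Figure D5:**
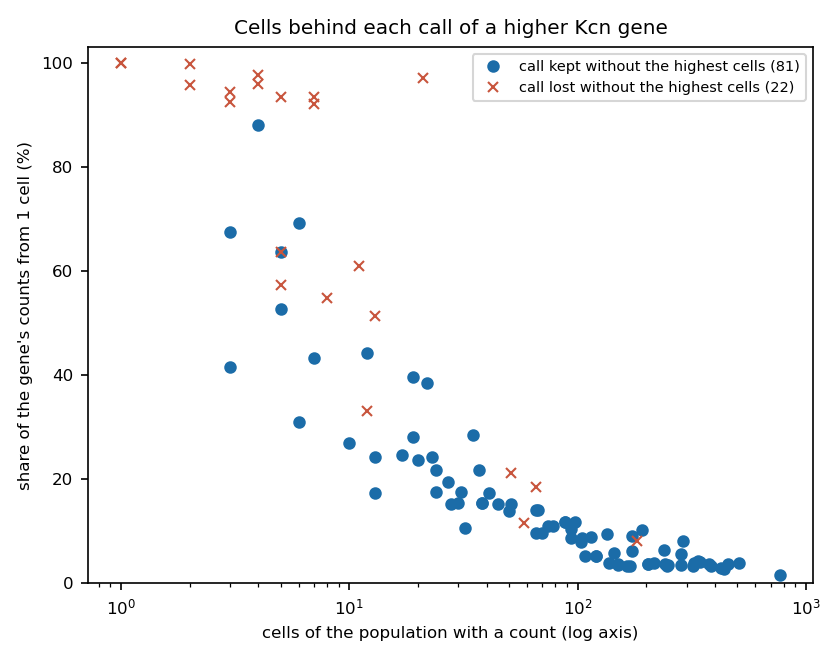
For each of the 103 calls of a higher *Kcn* gene, the number of cells of the population with a count (log axis) and the share of the gene's counts that came from 1 cell (%). Crosses mark the 22 calls lost when the highest cell of each gene was left out of every sum, which lie mainly at few cells and shares over 90%, and circles the 81 that were also made then.

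Some members cannot be separated from other transcripts on these reads, since it is not stated whether the counting used strand. *Kcnj13* shares 49.1% of its exon length with *Gigyf2* on the opposite strand, and *Kcna6* shares 39.6% with an antisense gene. The share was 31.5% for *Kcnmb4*, over 2 antisense genes, 12.2% for *Kcnk2* and under 10% for the others. *Kcnq1ot1*, the long antisense RNA of the imprinted *Kcnq1* locus and not a channel gene, held the most counts of all 59, had at least 10 CPM in each of the 36 clusters and was highest in #m17c at 467 CPM. It shares 2.96% of the exon length of *Kcnq1*. *Kcnrg*, the other gene that encodes no channel subunit, was at most 2.73 CPM in any cluster.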

How the data were processed

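The single-cell libraries (Smart-seq2, single reads) covered 3491 mouse liver cells in 8 samples, a male and a female pool for each of 4 classes. The deposited values are raw read counts per gene and cell. The authors' notes name bcl2fastq, Bowtie, Bowtie2, featureCounts, Subread and Seurat and the build GRCm38 (mm10), and whether the counting used strand is not given in the sources used here. The authors had removed cells by counts, genes, mitochondrial and spike-in shares and mixed markers, so low levels of other cells' genes are reduced before deposit. Classes and clusters are the authors'.

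Here the 92 spike-in rows were left out and counts were summed per population and pool where at least 5 cells were present. The sums were tested with edgeR 4.0.16 in R 4.3.3 (TMM scaling, filterByExpr, quasi-likelihood F-test) over all genes that passed the filter, with Benjamini-Hochberg adjustment, which 58 of the 59 members passed between classes and 26 to 52 within a class. The script was tested on simulated data, where in most of the comparisons simulated more of the calls were false than the adjusted level of 0.05 allows. Members and gene lists were chosen with earlier results of these data known. Some members are counted but not reported here by name. Every other member may be named, with pool values for those called, for the leaders per kilobase and for *Kcnj8*, *Kcnj11*, *Kcne3* and *Kcnk1*. Alternatives were DESeq2 1.42.0, other cell minimums, no filter, thinning to 50000 counts, sums per plate, each pool left out and the pool as a block, and, chosen after seeing the data, leaving out each gene's highest cell, 3 fibroblast clusters, #i4 or the peribiliary cells of #e2, and moving #e7 by its annotation. Within a class the clusters of a pool come from the same sample, so the pool number pairs them by the sample list. The correlations of deviations were -0.0395 to 0.149 among mesenchymal, -0.0219 to 0.0999 among endothelial and -0.0283 to 0.127 among immune clusters. The 2 pools of a population come from mice of different sex, and the mice within a pool are not named. So p-values measure the spread between a male and a female pool, in which sex, plate and mice are mixed.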

Additional observations from a re-analysis of the deposited data

Results flagged for a closer look

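*Kcnma1* moved in opposite directions in the 2 pools of parenchymal cells against the other classes. The log2 ratio was 4.59 for males and -4.69 for females, and the difference was not tested. The female pool held 39 cells, against 358 in the male pool.

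Cluster #m16c, mesothelial cells, held 6 cells and entered no comparison. Of the members with a count in at least 3 of these cells, *Kcnq1ot1* was at 34.6 CPM, with 75.4% of its counts from 1 cell, and *Kcnk3* was at 3.64 CPM on 3 cells, against a floor of 1.82 CPM for 3 counts. *Kcnab1*, *Kcnd3*, *Kcnk5* and *Kcnb2* stood higher, at 216, 152, 116 and 98.8 CPM, on 1 or 2 cells each.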

How the results depend on the processing

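Of 130 calls, 46 kept their direction and their side of the threshold in every alternative that gave a value. Of 211 recomputed counts of called *Kcn* genes, 131 stayed within 1.5 times the reported one. The others follow, in each case as the number called, and the cause was not tested. The shares of all genes called in the same fits are not given, so a changed count need not be particular to the *Kcn* genes.

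With DESeq2 the counts were 30 for endothelial and 31 for immune cells, 13 for SMC against fibroblasts, 10 for SMC against stellate clusters, 2 for stellate clusters against fibroblasts, 10 for #m15c, 1 for #m7c, 4 for the sinusoidal endothelium and 0 for #i2 and #m9c. With no filter on low counts they were 25 for endothelial and 28 for immune cells, 7 for SMC against fibroblasts, 6 for SMC against stellate clusters, 2 for stellate clusters against fibroblasts, 6 for #m5c, 5 for #m3c and #e2, 4 for #m7c, 3 for #m8c, 2 for #m9c and the sinusoidal endothelium and 1 for #e1. With at least 10 cells a sum they were 8 for SMC against fibroblasts, 2 for stellate clusters against fibroblasts and the sinusoidal endothelium, 1 for #m5c and #m8c and 0 for #i2, #m7c and #m9c. With at least 3 cells a sum they were 2 for #m5c and for stellate clusters against fibroblasts.

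With cells thinned they were 5 for #i5, 2 for #m8c and stellate clusters against fibroblasts, 1 for #m5c and #m7c and 0 for #i2. Without each gene's highest cell they were 9 for #p2, 3 for #i5 and #m5c, 2 for #i2, the sinusoidal endothelium and stellate clusters against fibroblasts, 1 for #m3c and #m8c and 0 for #m9c. With sums per plate they were 18 for mesenchymal and 17 for endothelial cells, 6 for #p2 and for SMC against stellate clusters, 4 for #m5c, 3 for stellate clusters against fibroblasts and 1 for #e1 and #m8c. With the pool as a replicate block they were 2 for the sinusoidal endothelium, 1 for #i5 and 0 for #i2, #m3c, #m7c and #m9c, and for the classes, whose pools are not known to be paired, no count moved by over 1.5 times.

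With 1 pool left out at a time, the counts ran from 19 to 24 for mesenchymal, from 2 to 2 for endothelial, from 10 to 11 for immune and from 9 to 11 for parenchymal cells, from 0 to 2 for SMC against stellate clusters, from 0 to 3 for #m3c, from 0 to 1 for #m9c, from 1 to 3 for #e2 and from 1 to 2 for stellate clusters against fibroblasts. Of the log2 fold changes, 3 turned: *Kcnab3* in #m2c (-2.40 without its male and 7.61 without its female pool), *Kcnh2* in parenchymal cells (-0.36 without the highest cells), and *Kcnma1* there (-0.95 without the male and 6.99 without the female pool). With the Kupffer cell cluster #i4 left out the count was 0 for #i2. The block and the pools left out could not be fitted for #p2, and #m7c, #i2 and #i5 rest on 1 sum each.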
